A study of Mus musculus with 6 samples.

Results

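Pericytes and vascular smooth muscle cells are the mural cells that wrap blood vessels. Described here are 8 of their best known genes, the pericyte genes Rgs5, Pdgfrb and Cspg4 and the contractile genes Acta2, Tagln, Cnn1, Myl9 and Myh11. They were taken by symbol from 19938 genes with a probe set of their own on the array, and each of the 8 had exactly 1 probe set. RNA of the whole cornea, taken from pups at postnatal day 3, was profiled on Affymetrix Mouse Gene 1.0 ST arrays. There were 3 DN-Clim arrays, from K14-DN-Clim transgenic pups, and 3 WT arrays, from their wild-type littermates. CLIM proteins partner with LIM-domain regulators of transcription, DN-Clim is a dominant-negative form of them, and the K14 (keratin 14) promoter is active in basal epithelial cells, a different cell class from mural cells. No other allele or agent is named for either group. Pooling of animals is not stated in the labels. The p-values therefore reflect only how far these arrays spread, some of which may be technical.

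As background, endothelial cells release PDGF-B, which recruits pericytes through the receptor encoded by Pdgfrb, and mature smooth muscle cells then contract when phosphorylated myosin pulls on actin filaments. The contractile genes are shared targets of serum response factor and its cofactor myocardin, which act at a promoter element called the CArG box. A healthy cornea is free of vessels except at its limbal rim. Contractile proteins are also made by iris and ciliary muscle and by stromal fibroblasts that become myofibroblasts, so these genes are not exclusive to vessels.

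Levels are log2(intensity + 16) except where an intensity is named. Each difference is DN-Clim minus WT, and p-values are limma's. An adjusted p is corrected over 23410 probe sets paired with a gene, and a gene is said to rise or fall only if that p was under 0.05. Corneal identity was checked first: Krt12, the keratin of differentiated corneal epithelium, read 11.16, 11.04 and 11.95 on DN-Clim replicates 1, 2 and 3 and 11.21, 11.55 and 11.47 on WT replicates 1, 2 and 3. Kera, the keratocyte proteoglycan keratocan, read 11.96 to 12.75 in DN-Clim and 12.56 to 13.09 in WT. Per the labels' protocols, qPCR for markers of adjacent tissue was used to check purity. The DN-Clim arrays differed among themselves. A list of 18 lens genes averaged 11.48 for DN-Clim replicate 1, 11.65 for replicate 2 and 7.90 for replicate 3, against 8.29 to 8.86 in WT. DN-Clim replicates 1 and 2 correlated at 0.964 with each other, and at 0.928 and 0.900 with replicate 3. The 8 genes are therefore also described without DN-Clim replicate 3 and with that array alone.

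All 8 genes averaged lower in the DN-Clim corneas than in WT, and none passed the adjusted threshold with the 6 arrays weighted equally. With array weights, limma's estimate of how reliable each array is, Pdgfrb (adjusted p = 0.00429), Cnn1 (0.00943) and Acta2 (0.0182) fell, and so did 5.86% of all probe sets. Weighted differences were -1.24 for Pdgfrb, -0.98 for Cnn1, -1.33 for Acta2 and -0.50 for Rgs5. Without DN-Clim replicate 3 they were -1.44, -1.06, -1.47 and -0.38. The weights themselves were not examined, so how far the weighted fit discounts DN-Clim replicate 3 is unknown. The values that follow weight the arrays equally. The smooth muscle actin gene Acta2 had the largest difference, -1.45 (2.74-fold higher in WT), followed by the receptor gene Pdgfrb at -1.07, the calponin gene Cnn1 at -0.94 and Rgs5 at -0.92. Cspg4 was nearly level at -0.08. The median over the 8 genes was -0.82, against -0.04 over all tested probe sets, of which 57.2% lay below 0. Adjusted p-values of the 8 ran from 0.498 to 0.999, and 0.0128% of all probe sets (3 of 23410) were called lower. For 4 of the 8 genes, Acta2, Cnn1, Pdgfrb and Rgs5, the highest DN-Clim array was under the lowest WT array, as was the case for 6.95% of all probe sets. An unadjusted p under 0.05 in the lower direction was reached by these 4 and by Tagln, 5 of the 8, against 4.49% of all probe sets. No test is attached to these counts, because the genes were chosen with earlier results of these data known. In whole-tissue RNA, fewer mural cells and less RNA per cell cannot be told apart.

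**Figure D1:**
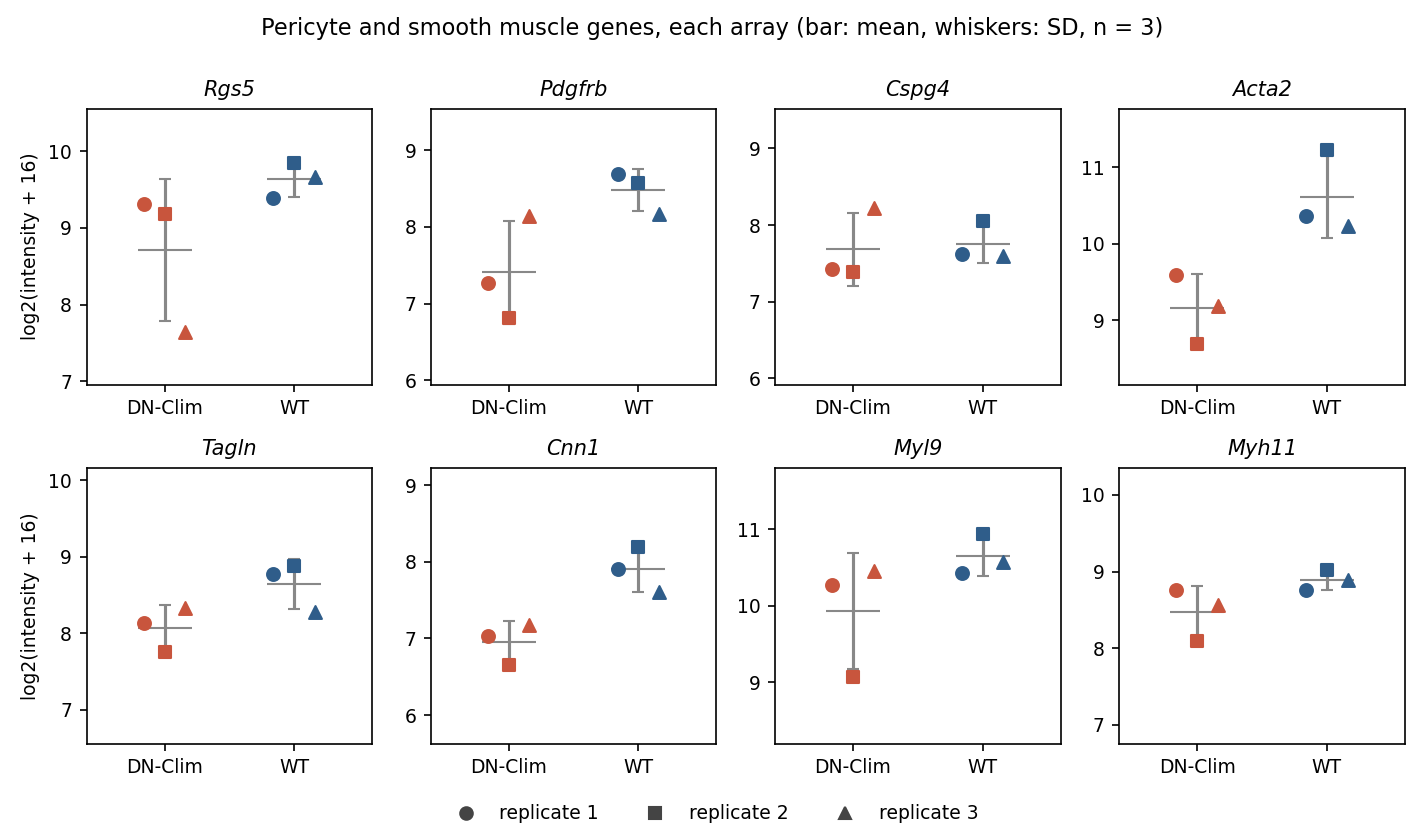
Level of each gene on each array as log2(intensity + 16), DN-Clim left and WT right, with the mean as a bar and the SD as whiskers (n = 3). Every panel spans the same range of log2 units. Acta2 shows the widest gap between the groups, while the lowest DN-Clim array is replicate 3 for Rgs5 and replicate 2 for every other gene.

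The pericyte genes did not share one pattern. Rgs5 encodes a GTPase-activating protein that damps G protein signalling and is a standard pericyte marker. It read 9.31, 9.19 and 7.65 on DN-Clim replicates 1, 2 and 3, against 9.39, 9.85 and 9.67 on the WT arrays. The groups did not overlap, but replicate 1 came within 0.08 of the lowest WT array, replicate 2 was close to it, and replicate 3 stood far below. In intensity, DN-Clim replicate 3 had 184, against 621 and 567 on the other DN-Clim arrays and 656 to 905 in WT. The difference of -0.92 had a 95% interval from -1.82 to -0.02 (adjusted p = 0.836). Without DN-Clim replicate 3 it was -0.38 (adjusted p = 0.270).

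Pdgfrb, the PDGF receptor beta gene of pericytes and many fibroblasts, was highest, not lowest, on DN-Clim replicate 3 among the DN-Clim arrays. It read 7.26, 6.82 and 8.14 on DN-Clim replicates 1, 2 and 3 and 8.69, 8.58 and 8.17 on WT replicates 1, 2 and 3. Replicates 1 and 2 were well below the lowest WT array, while replicate 3 lay 0.03 below it, so that the absence of overlap rests on a very small gap. The difference was -1.07 (95% interval -1.80 to -0.34, adjusted p = 0.687). Without DN-Clim replicate 3, Pdgfrb was the 1 gene of the 8 that fell, with a difference of -1.44 (adjusted p = 0.0193). In that comparison 1.52% of all probe sets fell.

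Cspg4 encodes NG2, a surface proteoglycan of pericytes and oligodendrocyte precursors. Its levels were 7.43, 7.38 and 8.23 on the DN-Clim arrays and 7.62, 8.05 and 7.59 in WT, so the highest of all 6 was DN-Clim replicate 3. The 95% interval of the difference ran from -0.67 to 0.52. Its sign turned under 6 of 18 alternatives, among them quantile normalization (0.03).

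Relative to each other, Rgs5 and Pdgfrb parted in both directions. The log2 ratio of Rgs5 to Pdgfrb, set to a WT mean of 0, was 0.89 for DN-Clim replicate 1, 1.22 for replicate 2 and -1.66 for replicate 3, while the WT arrays ran from -0.46 to 0.34. All 3 DN-Clim arrays were outside the WT range, 2 above it and 1 below. Pdgfrb fell short of Cspg4 more evenly: that log2 ratio was -0.89, -1.29 and -0.81 on the DN-Clim arrays and -0.20 to 0.35 in WT. These ratios were picked after the values were seen and carry no test.

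**Figure D2:**
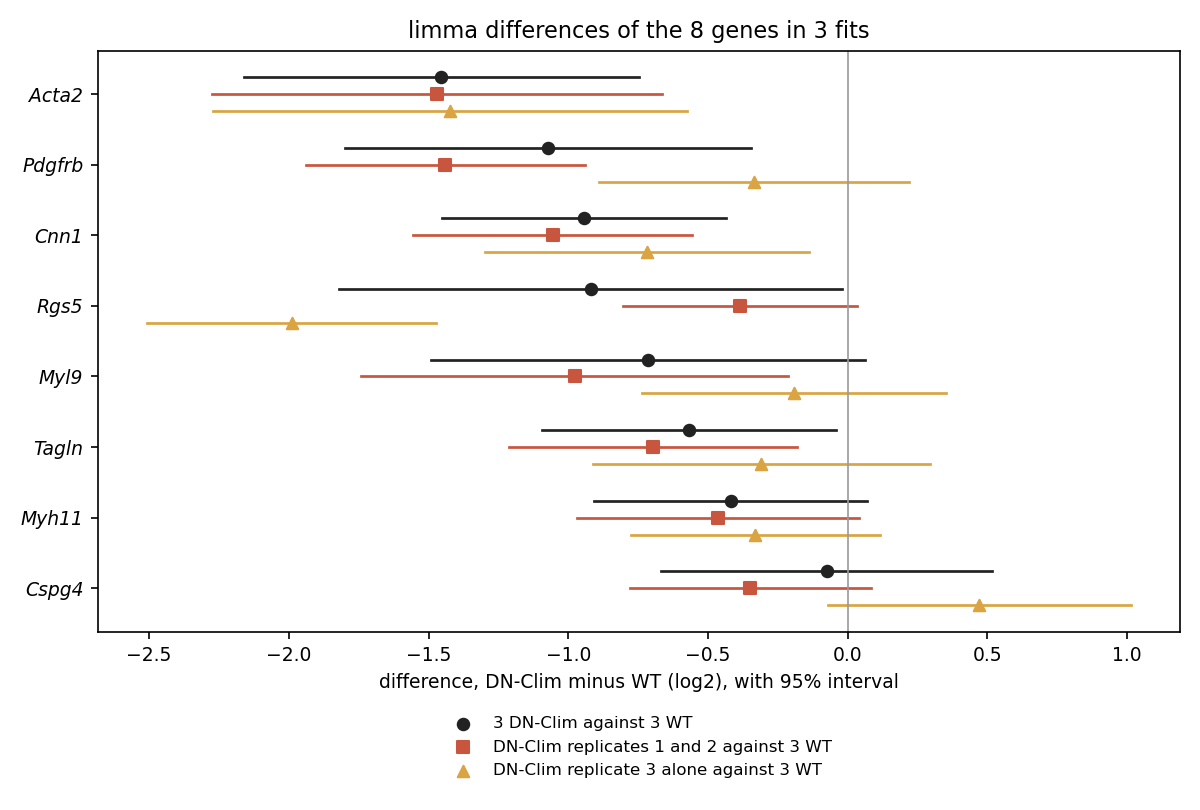
Difference in log2 level, DN-Clim minus WT, with its 95% interval from limma, for each gene with all arrays (circles), with DN-Clim replicates 1 and 2 (squares) and with DN-Clim replicate 3 alone (triangles), each against the same 3 WT arrays. The estimates for Acta2 lie between -1.47 and -1.42 in the 3 fits, whereas those for Rgs5 run from -1.99 to -0.38.

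Among the contractile genes, Acta2 and Cnn1 differed most. Acta2 encodes alpha smooth muscle actin, the filament protein of smooth muscle and myofibroblasts. Its intensities were 755, 399 and 568 on DN-Clim replicates 1, 2 and 3, against 1306, 2387 and 1192 in WT. On the log2 scale these were 9.59, 8.70 and 9.19 in DN-Clim and 10.37, 11.23 and 10.24 in WT, and the highest DN-Clim array lay 0.65 below the lowest WT array. The means were 9.16 ± 0.45 in DN-Clim and 10.61 ± 0.54 in WT (SD, n = 3 each). The difference of -1.45 (SE 0.313, 95% interval -2.16 to -0.75) had the 52nd smallest unadjusted p of all probe sets (0.00114), and its adjusted p was 0.498. A difference at least as negative was found for 0.342% of probe sets. Acta2 shares long stretches of sequence with the other actin genes, and the probe sequences were not used here, so how far its signal is its own is uncertain. Acta1, the skeletal actin, averaged the other way, with overlap, at 8.53, 7.93 and 9.30 in DN-Clim and 7.55, 8.09 and 8.40 in WT (adjusted p = 0.963). Actg2, another smooth muscle actin gene, averaged the same way as Acta2, also with overlap. Its levels were 7.73, 7.56 and 8.27 in DN-Clim and 8.44, 8.52 and 7.89 in WT (difference -0.43, adjusted p = 0.958).

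Cnn1 encodes calponin, an actin-binding protein that restrains myosin ATPase in smooth muscle. It read 7.04, 6.65 and 7.18 in DN-Clim and 7.90, 8.19 and 7.60 in WT. The groups were separated by 0.42, and all 3 DN-Clim arrays were low. The difference was -0.94 (95% interval -1.45 to -0.44, adjusted p = 0.612). Tagln encodes transgelin (SM22), a calponin relative and an early marker of smooth muscle differentiation. Its DN-Clim levels of 8.13, 7.75 and 8.33 overlapped the WT levels of 8.77, 8.88 and 8.27, since DN-Clim replicate 3 exceeded WT replicate 3. The difference was -0.57 (95% interval -1.09 to -0.04, adjusted p = 0.819).

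The myosin genes overlapped between the groups. Myl9, the regulatory light chain whose phosphorylation starts contraction, read 10.27, 9.07 and 10.45 in DN-Clim and 10.43, 10.93 and 10.57 in WT. Only DN-Clim replicate 2 was well below the WT range, and replicate 3 lay inside it. The difference was -0.71 (95% interval -1.49 to 0.06). Myh11, the smooth muscle myosin heavy chain and the most restricted marker of mature smooth muscle among the 8, read 8.76, 8.09 and 8.56 in DN-Clim and 8.76, 9.02 and 8.89 in WT. DN-Clim replicate 1 was level with the lowest WT array, and the difference was -0.42 (95% interval -0.91 to 0.07). The adjusted p-values of the 2 myosin genes were 0.884 and 0.907.

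Two-sided exact permutation tests of single genes gave p = 0.1 for Acta2, Cnn1, Pdgfrb and Rgs5, which is the smallest value that 3 against 3 arrays allow. They gave 0.2 for Tagln, Myl9 and Myh11 and 0.7 for Cspg4.

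Because the contractile genes share serum response factor as a regulator, the promoters of the 2 whose window held a match to its element are shown, from RefSeq (GRCm38.p6), each 250 bases before to 50 after the start site. The RefSeq table held 5 of the 8 genes (Rgs5, Cspg4, Acta2, Cnn1 and Myl9). Capitals mark a CArG box or a CArG-like element, meaning a CArG box in which at most 1 C or G was allowed in the core of A and T. The Acta2 window is chr19:34255324-34255623 on the minus strand and the Myl9 window is chr2:156775214-156775513 on the plus strand.

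Acta2: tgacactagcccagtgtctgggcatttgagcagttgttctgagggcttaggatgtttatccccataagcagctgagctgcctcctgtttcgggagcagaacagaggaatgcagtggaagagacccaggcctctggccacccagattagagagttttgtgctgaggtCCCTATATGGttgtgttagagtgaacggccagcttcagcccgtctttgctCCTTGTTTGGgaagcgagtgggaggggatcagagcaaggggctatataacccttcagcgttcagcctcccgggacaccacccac

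Myl9: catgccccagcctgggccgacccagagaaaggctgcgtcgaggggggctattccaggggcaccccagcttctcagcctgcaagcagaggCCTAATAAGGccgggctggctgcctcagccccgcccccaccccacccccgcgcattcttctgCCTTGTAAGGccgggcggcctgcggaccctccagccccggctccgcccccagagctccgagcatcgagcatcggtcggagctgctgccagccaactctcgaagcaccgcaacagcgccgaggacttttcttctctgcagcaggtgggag

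Acta2 held 2 CArG-like elements, with first bases at -84 and -34 from the start site, each with 1 C or G in the core. Myl9 held 1 strict CArG box at -161 and 1 CArG-like element at -99. Counted over 32851 promoter windows of the same length, 1.63% held a strict box and 9.98% held either form. The motif CATTCC, read by the TEAD factors, was found on either strand in 14.7% of windows and, among the 5 genes, once, in Acta2 at -146 (where it reads GGAATG). The windows of Cnn1, Cspg4 and Rgs5 held none of these letters, and TATAAA (13.6% of windows) was in none of the 5. Acta2, with the difference of -1.45, and Myl9, with -0.71, both carry a match, and Cnn1, with -0.94, does not in this window. A match is a description of letters and does not show that a factor binds.

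**Figure D3:**
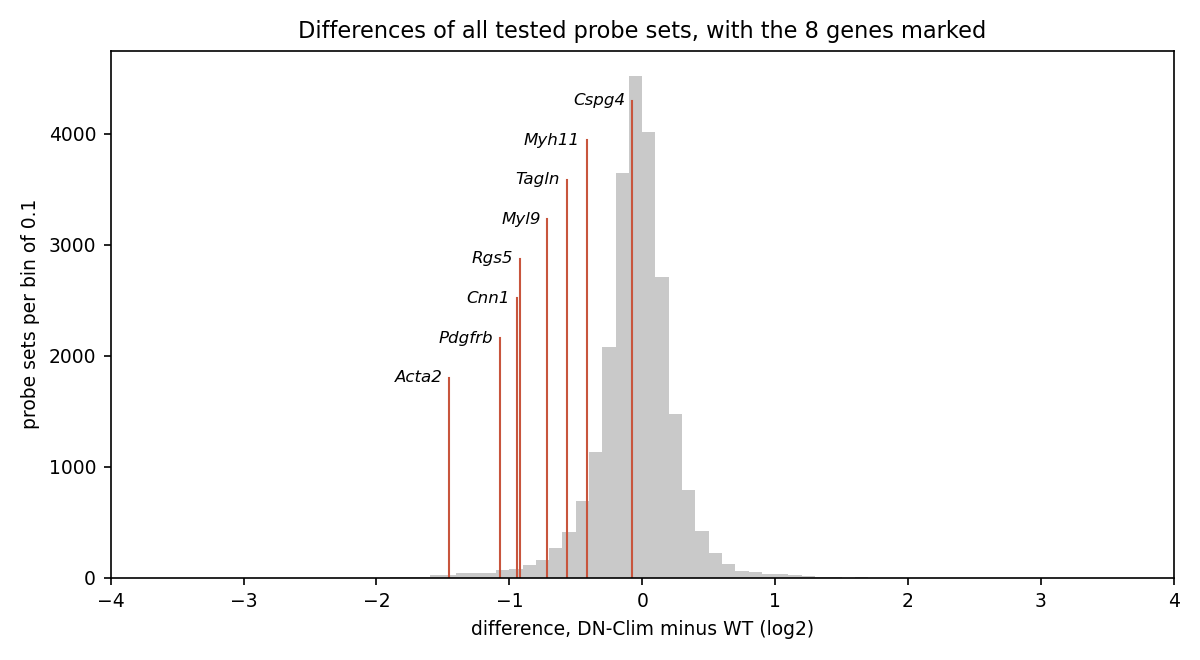
Histogram of the difference in log2 level, DN-Clim minus WT, over 23410 probe sets in bins of 0.1, with a line at the difference of each of the 8 genes. The heights of the lines are for legibility and carry no value. Acta2 lies in the sparse lower tail at -1.45, and Cspg4 lies in the centre at -0.08.

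Acta2 was well below its WT mean on every DN-Clim array. Relative to the WT mean, Acta2 lay at -1.02, -1.92 and -1.42 on DN-Clim replicates 1, 2 and 3, and Cnn1 at -0.86, -1.25 and -0.72. With DN-Clim replicate 3 alone against WT, Acta2 differed by -1.42 (adjusted p = 0.139), and without it by -1.47 (adjusted p = 0.0796). For Cnn1 the matching differences were -0.72 (adjusted p = 0.196) and -1.06 (adjusted p = 0.0548). Both genes lay below their WT means on the array with a low lens signal and on those with a high one. Beyond the lens covariate fit at the end of this paragraph, the part of lens tissue in these differences was not tested. Myl9 differed by -0.98 without DN-Clim replicate 3 and by -0.19 with it alone, and Tagln by -0.70 and -0.31. With DN-Clim replicate 3 alone, assumed to vary like WT, Rgs5 was the 1 gene of the 8 that fell, with a difference of -1.99 (adjusted p = 0.0404), and 0.312% of probe sets fell. These p-values take no account of how the omitted array was picked, and whether the DN-Clim arrays differ from each other for Rgs5 or Pdgfrb was not tested. When the mean lens signal was added to the fit as a covariate, Acta2 differed by -1.38, Pdgfrb by -0.49, Myl9 by -0.31 and Rgs5 by -1.71. Cnn1 differed by -0.74, Myh11 by -0.34, Tagln by -0.33 and Cspg4 by 0.34, and none of the 8 passed. Among DN-Clim arrays the lens signal mainly sets replicate 3 (7.90) apart from replicates 1 (11.48) and 2 (11.65). This fit therefore cannot separate lens tissue from other traits of that array.

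Across the 6 arrays the genes fell into one tight set and 2 looser genes. Pearson correlations among Pdgfrb, Acta2, Tagln, Cnn1, Myl9 and Myh11 ran from 0.74 to 0.96, with the highest for Acta2 with Cnn1 and for Tagln with Cnn1. Rgs5 correlated at 0.10 with Pdgfrb, 0.61 with Acta2 and -0.50 with Cspg4. Over 6 arrays that share groups and amplification these values only describe the arrays. Of 17349 other genes with a mean level of at least 7, the 6 most like Acta2 were Olfr812, Zfp651, Pip4k2a, Ehbp1, Olfr1355 and Mir421 (r from 0.985 to 0.992). The 6 most like the mean of the 8 genes were Gna11, Ptger3, Xpot, Cd2bp2, Stim1 and Ntrk3 (r from 0.990 to 0.998). The 6 most like Rgs5 were Itsn1, Tax1bp3, Lamtor2, Rac1, St7 and Ube2j1 (r from 0.985 to 0.998), each lowest on DN-Clim replicate 3. Of the 17349 genes, 39 reached 0.95 with Acta2, 72 with the mean of the 8 genes and 35 with Rgs5. The genes named are therefore not alone in their likeness.

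Of 20 other pericyte genes, 16 were below 0 (57.2% over all probe sets) and none passed with all arrays. The median was -0.24, or -0.32 without DN-Clim replicate 3 and -0.04 with it alone. Without DN-Clim replicate 3, Cd248 (endosialin, a glycoprotein of pericytes and fibroblasts) fell, with a difference of -1.95 (adjusted p = 0.0154). In that fit 1.52% of all probe sets fell. Cd248 read 9.11, 8.80 and 10.30 in DN-Clim and 11.45, 10.73 and 10.53 in WT, with DN-Clim replicate 3 highest and replicate 2 lowest of the DN-Clim arrays, as for Pdgfrb. The potassium channel pair of pericytes, Kcnj8 and Abcc9, differed by -0.36 and -0.53, and the mural Notch receptor gene Notch3 by -0.47. These differences were -0.68, -0.74 and -0.64 without DN-Clim replicate 3, and with it alone 0.29, -0.10 and -0.13. These 3 were picked by role, and none passed in any of the 3 fits. Above 0 with all arrays were Ndufa4l2 (0.37), Vtn (0.09), Cox4i2 (0.02) and Nes (4.95e-05). Ndufa4l2 differed by 0.89 without DN-Clim replicate 3 and by -0.68 with it alone. Kcnj8 was above all WT arrays on DN-Clim replicate 3 (8.18), the array on which Rgs5 was lowest. Des, the intermediate filament desmin, differed by -0.01, by -0.13 without DN-Clim replicate 3 and by 0.23 with it alone.

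Of 31 other smooth muscle contractile genes, 25 were below 0 (57.2% over all probe sets). The median was -0.27, or -0.42 without DN-Clim replicate 3 and -0.04 with it alone. None passed with all arrays, and 10 had DN-Clim arrays wholly below WT, as had 6.95% of all probe sets. Itga8, an integrin subunit of smooth muscle and other mesenchymal cells, read 7.53, 7.01 and 7.54 in DN-Clim and 8.45, 8.30 and 8.16 in WT. Itga8 differed by -0.95 (adjusted p = 0.512) and was the 1 that fell without DN-Clim replicate 3 (-1.04, adjusted p = 0.0446). In that fit 1.52% of all probe sets fell. Mylk, the kinase that phosphorylates the Myl9 light chain, read 9.02, 8.56 and 7.72 in DN-Clim and 9.14, 9.37 and 9.27 in WT. Like Rgs5 it was lowest on DN-Clim replicate 3, and with that array alone it was the 1 of this list that fell (-1.54, adjusted p = 0.0442). It is named after its values were seen.

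**Figure D4:**
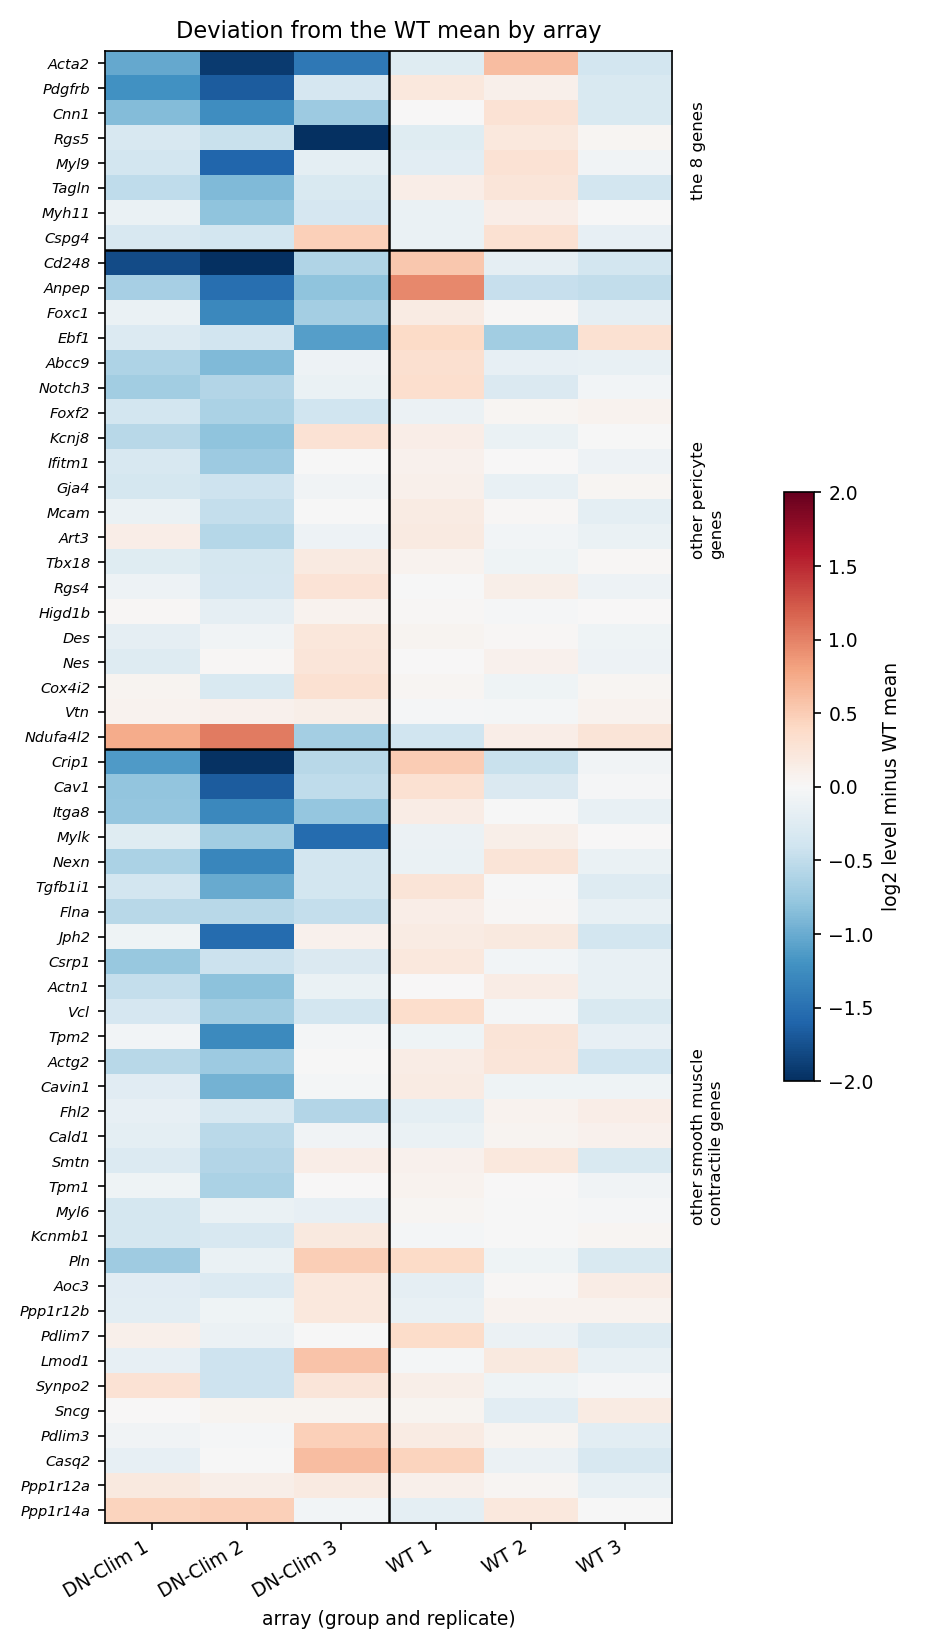
Log2 level minus the WT mean on each array, DN-Clim columns left and WT columns right, for the 8 genes, 20 other pericyte genes and 31 other smooth muscle contractile genes, each block sorted by its group difference. Colours are capped at 2 log2 units. The blue cells concentrate on DN-Clim replicates 1 and 2, and Rgs5 and Mylk are darkest on replicate 3.

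No transcription regulator of the contractile program passed in any of the 3 fits. Of 12 genes of serum response factor and myocardin regulation, 7 were below 0 with all arrays (57.2% over all probe sets). Their differences lay between -0.34 and 0.30 with a median of -0.05. They lay between -0.61 and 0.52 without DN-Clim replicate 3, with a median of -0.08, against -0.12 over all probe sets. In that fit 4 of the 12 had an unadjusted p under 0.05, as had 4830 of the 23410 probe sets. Srf read 9.21, 9.10 and 9.32 in DN-Clim and 9.37, 9.38 and 9.09 in WT, a difference of -0.07 (95% interval -0.48 to 0.34), or -0.12 without DN-Clim replicate 3. Myocd, the cofactor myocardin, read 7.10, 6.88 and 7.88 in DN-Clim and 7.31, 7.64 and 7.42 in WT, a difference of -0.17 (95% interval -0.77 to 0.43). The Myocd difference was -0.47 without DN-Clim replicate 3 (adjusted p = 0.191) and 0.43 with it alone (adjusted p = 0.288). Both are named by role. By p, the first 3 were the repressor of myocardin Foxo4 (0.29), the kinase gene Prkg1 (-0.30) and the ternary complex factor Elk1 (0.30), with adjusted p-values from 0.968 to 0.999.

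Of 23 genes for signals that recruit mural cells, 17 were below 0 (57.2% over all probe sets) and none passed with all arrays. The median was -0.29, or -0.37 without DN-Clim replicate 3 and -0.05 with it alone. Pdgfb, the gene of the recruiting ligand PDGF-B, read 8.09, 7.77 and 8.23 in DN-Clim and 7.89, 8.07 and 7.83 in WT. The groups overlapped, and Pdgfb differed by 0.10 (adjusted p = 0.999), and by 0.31 with DN-Clim replicate 3 alone. Without DN-Clim replicate 3 the PDGF ligand gene Pdgfc fell by 1.17 on the log2 scale (adjusted p = 0.0166). Pdgfra, the alpha receptor of fibroblasts, fell by 2.17 in that fit (adjusted p = 0.00446), in which 1.52% of all probe sets fell. With DN-Clim replicate 3 alone Pdgfc differed by 0.02 and Pdgfra by 0.07. Pdgfra is also in the keratocyte list. Pdgfd, a ligand of the beta receptor, had DN-Clim arrays wholly below WT, at 7.08, 6.86 and 7.39 against 9.10, 7.61 and 7.98 (difference -1.12, adjusted p = 0.699). The highest difference of the list was that of Hey2, a Notch target of smooth muscle, at 1.05 (adjusted p = 0.891), or 1.66 without DN-Clim replicate 3 (adjusted p = 0.0720). Pdgfb, Pdgfd and Hey2 are named by role or for their values. Angpt1, the angiopoietin that mural cells supply to endothelium, read 8.44, 9.47 and 7.08 in DN-Clim and 8.60, 8.99 and 9.27 in WT. It fell with DN-Clim replicate 3 alone (-1.87, adjusted p = 0.0442), where Rgs5 and Mylk were also lowest, and is named after its values were seen.

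Endothelial genes, of the other cell of the vessel wall, were mostly lower. Of 18, 15 were below 0 and 8 had DN-Clim arrays wholly below WT, against 57.2% and 6.95% of all probe sets, while Kdr (0.39), Plvap (0.29) and Robo4 (0.03) were above 0. Emcn, a capillary and venous sialomucin, was the 1 that fell with all arrays (-2.44, adjusted p = 0.0113). Emcn, Clec14a, Cdh5 and Erg fell without DN-Clim replicate 3, as did 1.52% of all probe sets. With that array alone these 4 differed by -2.22, -1.66, -1.59 and 0.03. The summed intensity of this list ran from 4320 to 6003 in DN-Clim and from 7775 to 9144 in WT, and the sum over the 8 mural genes from 2275 to 3689 in DN-Clim and from 4877 to 7082 in WT. Set against the median of the endothelial list on the same array, Acta2 was at -0.48, -1.22 and -1.27 on DN-Clim replicates 1, 2 and 3, with WT arrays from -0.33 to 0.65. Tagln was at 0.03, -0.20 and -0.15, within the WT range of -0.29 to 0.27. Rgs5 was at 0.22, 0.24 and -1.83. By this measure the DN-Clim means of Cspg4 (0.39) and Myh11 (0.04) were above 0. Those of Acta2 (-0.99), Pdgfrb (-0.61), Cnn1 (-0.48), Rgs5 (-0.46), Myl9 (-0.25) and Tagln (-0.11) were below. No test was made of these relative values.

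Stromal genes of the cornea were low on DN-Clim replicates 1 and 2. Of 22 keratocyte and fibroblast genes 21 were below 0, against 57.2% of all probe sets, and none passed with all arrays. Without DN-Clim replicate 3 there were 11 that fell, against 1.52% of all probe sets. These were Col3a1, Postn, Ogn, Aldh3a1, Pdgfra, Dcn, Col5a2, Lum, Col1a2, Fn1 and Chst5. In the same fit 1 rose (Ptgds), as did 0.547% of all probe sets. The list median relative to the WT mean was -0.99 for DN-Clim replicate 1, -1.50 for replicate 2 and -0.04 for replicate 3, and its summed intensity ran from 25590 to 61078 in DN-Clim and from 62292 to 69382 in WT. On DN-Clim replicate 3, where this list was near its WT level, Acta2 differed from the WT mean by -1.42. Set against the keratocyte median of each array, Acta2 was at -0.03, -0.41 and -1.38 in DN-Clim and at -0.29 to 0.54 in WT, so that replicate 1 lay within the WT range. Pdgfrb was at -0.23, -0.16 and -0.29 in DN-Clim and -0.01 to 0.17 in WT. On this scale the DN-Clim means of Cspg4 (0.77), Myh11 (0.43), Tagln (0.28) and Myl9 (0.13) were above 0, and those of Acta2 (-0.61), Pdgfrb (-0.23), Cnn1 (-0.10) and Rgs5 (-0.07) below. The part of stromal cells in the mural differences was not tested.

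**Figure D5:**
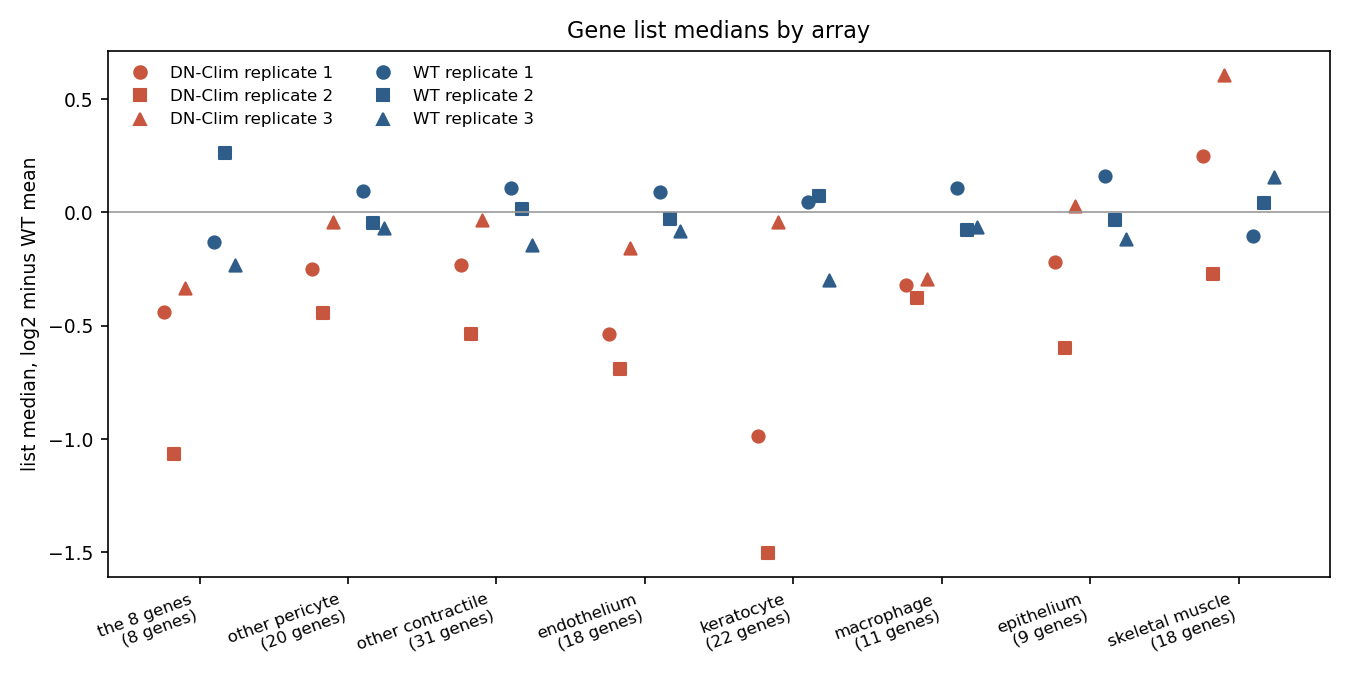
Median over each gene list of the log2 level minus the WT mean, on each of the 3 DN-Clim (red) and 3 WT (blue) arrays. For the 8 genes, and also for the endothelial and macrophage lists, every DN-Clim array lies below every WT array. On DN-Clim replicate 3 the endothelial median is -0.16, the macrophage median -0.29, the keratocyte median -0.04 and the skeletal muscle median 0.61.

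Other muscle and neighbouring tissues had these values. The summed intensity of 18 skeletal muscle genes came to 8375 for DN-Clim replicate 1, 4499 for replicate 2 and 13298 for replicate 3, against 4211 to 6095 in WT. Without DN-Clim replicate 3, 1 of them rose (Pgam2, a muscle phosphoglycerate mutase), and with it alone Tnnt3 and Tnni2 rose, as did 0.0256% of all probe sets. For 12 iris and other pigment cell genes the sum was 16739, 17506 and 5657 in DN-Clim and 7938 to 12807 in WT, with none past the threshold with all arrays or without DN-Clim replicate 3, and the smallest p for Otx2, Slc45a2 and Gpr143. With that array alone Dct and Mlana fell. For 18 lens genes it was 146044, 147376 and 4742 in DN-Clim and 6102 to 10907 in WT, and 12 rose without DN-Clim replicate 3 (Cryaa, Cryba1, Cryba2, Cryba4, Crybb1, Crybb3, Crygb, Crygc, Crygd, Crygs, Bfsp1 and Grifin), against 0.547% of all probe sets. For 11 macrophage genes it was 2559 to 2974 in DN-Clim and 3495 to 4134 in WT. All 11 were below 0, as were 57.2% of all probe sets. None passed with all arrays or without DN-Clim replicate 3, with the smallest p for Mrc1, Lyz2 and Cd68. Mrc1 fell with that array alone (adjusted p = 0.0442). For 9 epithelial genes it was 23930 to 32271 in DN-Clim and 30198 to 34845 in WT, and Krt14 fell without DN-Clim replicate 3. For 6 corneal endothelial genes it was 4422 to 5405 in DN-Clim and 4413 to 5456 in WT, and Slc4a4 fell in the same fit. No gene of any of these lists read below an intensity of 16 on any array. Apart from the lens covariate fit, the part of these tissues in the differences of the mural genes was not tested.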

How the data were processed

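Per the submitters' processing notes, the authors made probe set values with Affymetrix Expression Console 1.1 and PLIER, and the deposited table holds intensities on a linear scale. The sources used here do not give the background correction, normalization or any offset. RNA of dissected corneas was amplified with a NuGEN kit, per the labels' protocols.

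The table held 35557 probe sets. A platform table paired 23410 with a gene, 21789 of them with exactly 1 symbol. The probe set with the highest mean stood for a gene. Values were taken as log2(intensity + 16), which understates fold changes of dim genes. Array medians differed by 0.237, under the limit of 0.5 set for centring. One limma 3.58.1 fit (R 4.3.3, lmFit and eBayes) covered all 23410, with p-values adjusted by Benjamini-Hochberg (threshold 0.05), and was first tested on simulated data. The number of arrays limits precision. Alternatives were other offsets, normalizations, filters, priors and weights (arrayWeights with its gene-by-gene method), a replicate block, a lens covariate and leaving out arrays.

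The 8 genes and the other gene lists were chosen with earlier results of these data known. From each other list, genes past the threshold with all arrays or without DN-Clim replicate 3 are named, or else the 3 with the smallest p. Same-numbered arrays did not pair: the correlations of their deviations from the group means were 0.017, -0.206 and -0.436. Of 217 list entries, 4 were matched through another symbol.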

Additional observations from a re-analysis of the deposited data

How the results depend on the processing

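Over 18 alternatives the 8 genes gave 144 values, of which 133 had the same sign and call, 5 newly passed the threshold and 6 turned sign. The 6 are all Cspg4: quantile normalization (0.027), the lens covariate (0.34), DN-Clim replicate 3 alone (0.47) and 3 of the 6 leave-one-out fits. Those 6 fits ran from -0.348 to 0.0734. With array weights Acta2, Pdgfrb and Cnn1 passed, which made 3 genes past the threshold. The others were Pdgfrb without DN-Clim replicate 3 and Rgs5 with replicate 3 alone, 1 gene each. Leaving out single arrays gave 0 to 1 of the 8 genes past it. The median of the 8 genes was -0.42 with the lens covariate and -0.33 with DN-Clim replicate 3 alone. Without DN-Clim replicate 2 that median was -0.59, with Myl9 at -0.28 and Myh11 at -0.23, while Rgs5 was at -1.16. The count of all probe sets past the threshold, 3, became 1 with quantile normalization, 0 with all probe sets of the table, 5 with the trended robust prior, 2059 with array weights, 9 with the replicate block and 79 with DN-Clim replicate 3 alone. It ran from 0 to 483 when single arrays were left out, with 483 without DN-Clim replicate 3. The replicate block changed no call among the 8 genes. The mean over probe sets of a gene changed none of the 8, which have 1 each, and gives no count of probe sets. The cause of these shifts was not tested. Signal over background was not used here, so how near dim genes such as Cnn1 lie to background is unknown.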
